A study of Homo sapiens with 6 samples.

Results

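The genes described here build and control epithelial junctions: 35 genes for keratins, claudins, other tight junction proteins, desmosome and adherens junction proteins, epithelial regulators, and the adhesion and protease proteins of the epithelial surface. They were chosen by name, and every array probe whose platform annotation gives exactly 1 of these symbols was taken. This gave 54 probes for 33 genes, of 47314 probes and 20043 named genes on the array. F11R and TJP3 had no probe with their symbol alone, so their expression is not analysed here.

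SKOV-3 cells were compared in 2 groups, with 3 Illumina bead arrays each. The siHBO1 cells were transfected with siRNA against HBO1, the lysine acetyltransferase encoded by KAT7, and the siCtrl cells with a scramble siRNA, and total RNA was taken 48 h later in both. SKOV-3 is an established human ovarian carcinoma cell line. The labels do not say whether the replicates came from separate cultures. The p-values therefore rest on the spread among these 6 samples alone, and that spread may be technical.

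Epithelial cells are held together by 3 kinds of contact. Tight junctions, built from claudins and occludin on a scaffold of ZO proteins, seal the space between cells. Adherens junctions join cadherins to actin through catenins, and desmosomes join desmogleins and desmocollins to keratin filaments through plakoglobin, plakophilins and desmoplakin. Transcription factors such as GRHL2, OVOL1 and ELF3 and the splicing factors ESRP1 and ESRP2 maintain this state, and ZEB and SNAI factors repress it.

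Between 42.2% and 44.3% of all probes were detected per array (detection p under 0.05, judged by the array's control beads), and mean signals lay between 643 and 744. KAT7 had log2 values of 4.77, 5.22 and 5.45 on siHBO1 arrays 1 to 3, against 5.93, 6.49 and 6.45 on siCtrl arrays 1 to 3, with no overlap. Its log2 change was -1.14 (SE 0.25, limma adjusted p 0.999), and its probe was detected on 1 of 3 siHBO1 and 3 of 3 siCtrl arrays. Its signals were 143.3 to 181.9 on siHBO1 and 189.7 to 228.2 on siCtrl arrays. They lie near background, which limits how well the size of the change is known. All 9 markers listed for an epithelial ovarian carcinoma line were detected on all 6 arrays, ERBB2, PAX8 and MSLN among them. Of 5 leukocyte markers measured, CD14 and CD68 were detected on all 6 arrays and PTPRC and CD3E on none. Of 8 fibroblast and endothelial markers, COL1A1 and COL1A2 were detected on all 6 arrays and PECAM1, CDH5 and VWF on none.

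Detection was uneven across the junction, keratin and regulator genes. At least 1 probe was detected on all 6 arrays for 19 of the 33 measured genes (57.6%, against 53% of all named genes), on some arrays for 7 and on none for the remaining 7. All 5 keratins were detected on all 6 arrays: KRT8 and KRT18, the paired keratins of simple epithelia, KRT7 and KRT19, which accompany them in gland and duct epithelia, and KRT80. Among claudins, the sealing proteins of the tight junction, CLDN1 and CLDN3 were detected on all 6 arrays. CLDN4 was detected on the arrays numbered 2 of both groups and CLDN7 on those numbered 3.

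Of the remaining tight junction genes, TJP1 (the scaffold ZO-1), CGN (cingulin, which links the junction to the cytoskeleton) and MARVELD2 (tricellulin, found where 3 cells meet) were detected on all 6 arrays. OCLN, which encodes occludin, was detected on none by either of its 2 probes, whose signals lay between 125.6 and 144.9. The lowest signal called detected was between 154.6 and 174.8, depending on the array, so OCLN was not detectable above background. Of the 8 desmosome genes, DSP, DSC2, DSG2, JUP and PERP were detected on all 6 arrays, and DSC3, PKP2 and PKP3 on some. In the adherens junction, CTNNA1 (alpha-catenin) was detected on all 6 arrays. CTNND1 (p120-catenin) had 5 probes, of which 2 were detected on some arrays and 3 on none, and CDH3 (P-cadherin) was detected on none.

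Most regulators of the epithelial state were not detected. ESRP1, ESRP2, GRHL2 and OVOL1, each with 1 probe, were detected on 0 of 6 arrays, and ELF3, the other regulator of the 5, was detected on all 6. The GRHL2 signal was 132.1, 127.4 and 137.5 on siHBO1 arrays 1 to 3 and 140.3, 135.2 and 133.2 on siCtrl arrays 1 to 3, all below the detected range. The surface protease system was also split. Its serine protease ST14 (matriptase) was detected on no array, its inhibitor SPINT1 on 1 siCtrl array by 1 of 2 probes, and the inhibitor SPINT2 and the adhesion protein EPCAM on all 6. A probe that gives no signal shows only that its target sequence was not measured above background, and single probes cannot tell an absent transcript from a probe that fails. Probes of 1 gene show that limit: 1 of 3 DSP probes was detected on no array and 1 of 2 DSC2 probes on 1 siCtrl array, and in both genes the platform table ties that probe to a different transcript record from the detected one. MARVELD2 was detected on all 6 arrays by 1 of 2 probes, at signals of 156.1 to 182.7, and by the other on 1 array. JUP was detected on all 6 by 1 of 3 probes, and by the others on 2 arrays and 1 array.

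**Figure D1:**
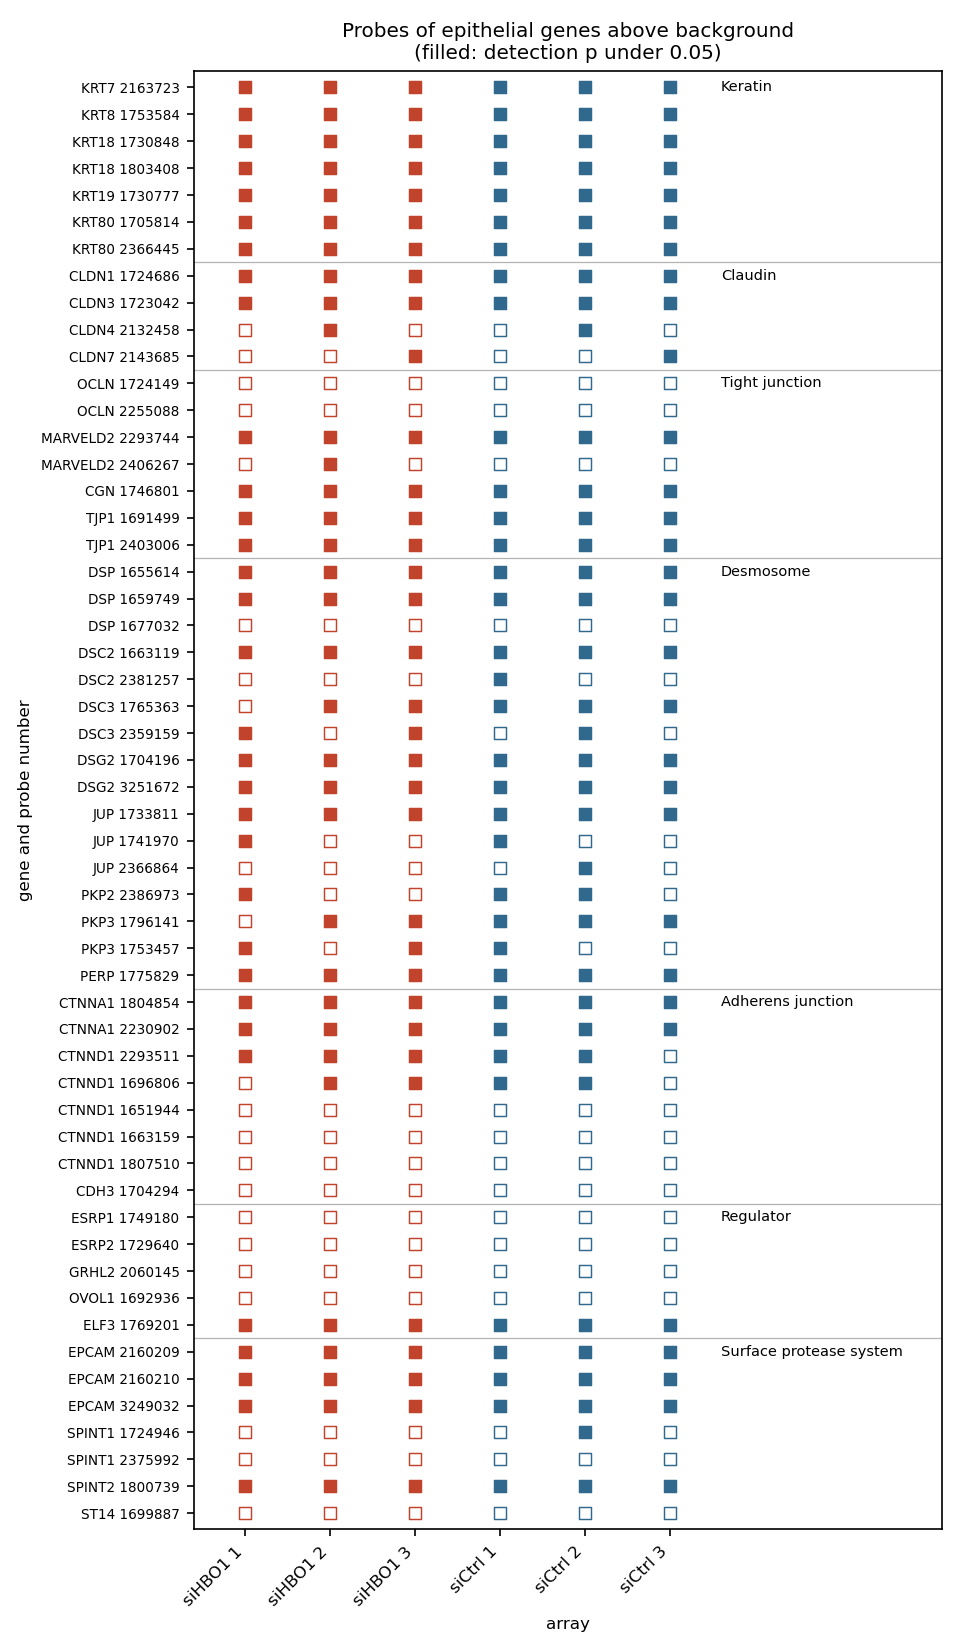
Each row is a probe of a listed gene and each column an array, siHBO1 arrays in red and siCtrl arrays in blue; a filled square marks a detection p under 0.05. All keratin rows are filled, and ESRP1, ESRP2, GRHL2, OVOL1, OCLN, CDH3 and ST14 are empty on all 6 arrays in both groups.

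Transcripts of factors that repress epithelial genes were detected on the same arrays. SNAI2 and TWIST1 were detected on all 6 arrays, as were ZEB1 and 1 of 2 probes of ZEB2, while SNAI1 was detected on none. CDH1 (E-cadherin), which these factors are known to repress, was detected on 0 of 6 arrays, and CDH2 (N-cadherin) and VIM (vimentin) on all 6. In limma none of the tested probes of these genes passed an adjusted p of 0.05 (log2 change -0.30, SE 0.26 for ZEB2, 0.00, SE 0.24 for ZEB1, 0.10, SE 0.12 and 0.05, SE 0.14 for SNAI2, 0.34, SE 0.17 for TWIST1).

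ZEB and SNAI factors bind the E-box CACCTG, which reads CAGGTG on the other strand. RefSeq promoter windows of 300 bases (GRCh38.p14, 250 bases before to 50 after a gene's start) were at hand for 19 of the 35 genes and searched for these letters on both strands. The motif occurred in 12 of 31 windows, against 20.6% of 35116 windows of all genes, and in at least 1 window of 11 of the 19 genes (57.9%), against 24.1% of 27305 genes. The listed genes had more windows each, 1.63 on average against 1.29. Among genes detected on all 6 arrays 7 of 13 held it, and among those detected on some arrays 2 of 4. Of the genes detected on none, ESRP1, ESRP2, GRHL2, OVOL1, CDH3 and ST14 had no window and were not searched. OCLN, the only 1 with a window, held the motif. TJP3, which had no probe, held it in 1 of its 2 windows. The windows of the claudins and OCLN are shown because these genes span the range of detection, with the motif in capitals. For CLDN7 and OCLN, which have 2 windows each, the window with more matches is shown.
CLDN7, detected on 2 of 6 arrays, chr17:7262429-7262728, minus strand: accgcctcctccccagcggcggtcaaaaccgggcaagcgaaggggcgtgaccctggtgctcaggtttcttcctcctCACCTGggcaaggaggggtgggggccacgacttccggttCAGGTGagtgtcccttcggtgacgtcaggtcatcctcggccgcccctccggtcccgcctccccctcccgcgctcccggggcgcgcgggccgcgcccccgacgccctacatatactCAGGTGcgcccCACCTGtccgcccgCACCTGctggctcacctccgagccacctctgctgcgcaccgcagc
OCLN, detected on 0 of 6 arrays, chr5:69492540-69492839, plus strand: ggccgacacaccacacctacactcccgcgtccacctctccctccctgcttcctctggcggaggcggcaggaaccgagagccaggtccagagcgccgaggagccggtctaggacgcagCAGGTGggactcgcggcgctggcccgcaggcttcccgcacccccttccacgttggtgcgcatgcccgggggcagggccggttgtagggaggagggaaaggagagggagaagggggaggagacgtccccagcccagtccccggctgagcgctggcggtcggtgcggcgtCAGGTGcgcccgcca
CLDN4, detected on 2 of 6 arrays, chr7:73830746-73831045, plus strand: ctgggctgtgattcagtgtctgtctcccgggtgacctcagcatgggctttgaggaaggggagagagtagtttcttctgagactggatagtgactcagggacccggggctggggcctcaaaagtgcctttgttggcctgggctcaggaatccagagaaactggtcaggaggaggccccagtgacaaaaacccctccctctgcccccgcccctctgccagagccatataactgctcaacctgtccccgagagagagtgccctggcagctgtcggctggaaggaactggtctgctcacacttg
CLDN3, detected on 6 of 6 arrays, chr7:73770221-73770520, minus strand: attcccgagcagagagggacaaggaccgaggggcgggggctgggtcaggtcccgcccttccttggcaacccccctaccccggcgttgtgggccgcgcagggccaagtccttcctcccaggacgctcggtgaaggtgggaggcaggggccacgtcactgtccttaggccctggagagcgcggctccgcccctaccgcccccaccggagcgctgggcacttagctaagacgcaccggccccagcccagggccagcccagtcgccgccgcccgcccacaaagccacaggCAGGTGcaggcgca
CLDN1, detected on 6 of 6 arrays, chr3:190322397-190322696, minus strand: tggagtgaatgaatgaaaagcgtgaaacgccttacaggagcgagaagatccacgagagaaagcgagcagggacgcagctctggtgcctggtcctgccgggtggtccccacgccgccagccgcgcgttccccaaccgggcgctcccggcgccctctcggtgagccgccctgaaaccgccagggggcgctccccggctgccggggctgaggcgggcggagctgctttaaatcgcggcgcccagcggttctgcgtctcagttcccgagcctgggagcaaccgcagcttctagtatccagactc
The CLDN7 window held 5 matches, at -174, -135, -20, -9 and 6 from the start. This was the highest count among the 31 windows, picked after the search, and 33 of the 35116 windows of all genes reached or passed it. The second CLDN7 window held 0, and the other OCLN window 1. CLDN4 and CLDN1 held none in the windows shown, and CLDN3 held 1, at 37. A match is a description of the letters and does not show that a factor binds there.

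The siHBO1 arrays were then compared with the siCtrl arrays. The test took probes detected on 3 or more arrays in any combination of groups, which were 34 probes of 23 genes; the other 20 probes were left out. None of the 34 passed limma's test at an adjusted p under 0.05: 0 were called higher and 0 lower, as were 0% of all 20744 tested probes in either direction. The smallest adjusted p was 0.999 among these probes and 0.186 over all. At an unadjusted p under 0.05 there were 2 of the 34 (5.88%), KRT80 lower and DSG2 higher, against 3.73% of all tested probes. With array weights there were 9 of 34 (against 7.58% of all tested probes), and with the replicate number as a block 6 of 34 (against 6.79%). The log2 changes ran from -0.37 (DSC3) to 0.65 (JUP). By the brightest probe of each gene 11 were positive and 12 negative, with a median of -0.04, against 0.01 over all tested genes. That median was -0.21 without siHBO1 1, -0.10 without siCtrl 3, 0.03 and 0.04 without siHBO1 3 or siHBO1 2, -0.12 without both arrays numbered 1 and 0.06 with array weights. For 27 of the 34 probes the 95% interval of the change stayed within 2-fold in both directions.

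**Figure D2:**
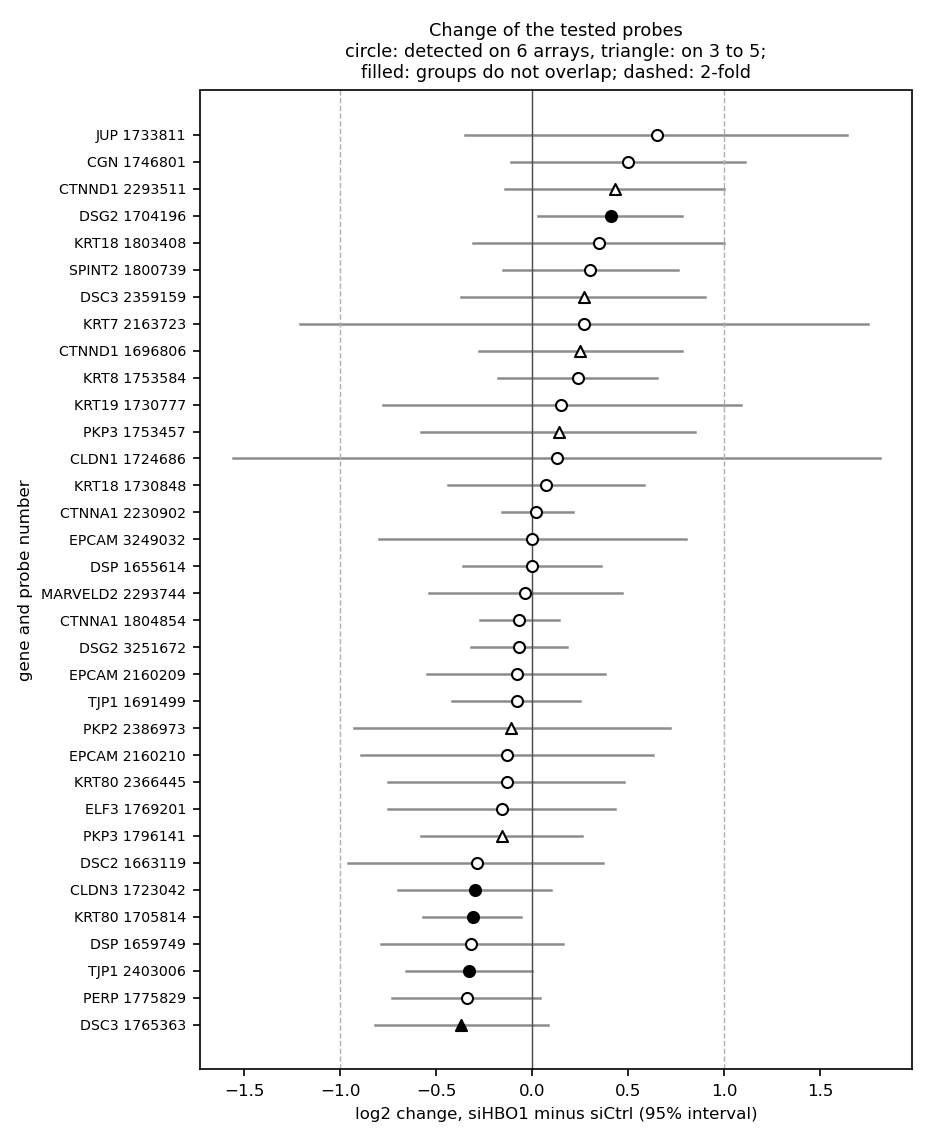
Log2 change of each of the 34 tested probes, siHBO1 minus siCtrl, with its 95% limma interval; circles were detected on 6 arrays and triangles on 3 to 5, filled symbols mark groups that do not overlap, and dashed lines mark 2-fold. The points lie between -0.37 and 0.65, and the widest intervals belong to CLDN1 and KRT7.

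In 5 of the 34 probes (14.7%) the groups did not overlap, against 9.98% of all tested probes. Probes of KRT80, TJP1, CLDN3 and DSC3 had all siHBO1 values below all siCtrl values, which 4.55% of all probes had, and 1 of DSG2 had all above, against 5.43%. With 1 array fewer the count was 11 without siCtrl 1 (18.5% of all probes), 9 without siHBO1 2 (27.1%) and 8 without siHBO1 1 (17% of all probes). Without both arrays numbered 1, an exclusion chosen after the values were seen, it was 16 (27% of all probes).

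Keratins, the intermediate filaments that desmosomes anchor, had small changes in both directions. KRT80 (ILMN_1705814) had log2 values of 11.73, 11.58 and 11.79 on siHBO1 arrays 1 to 3, against 12.01, 12.13 and 11.91 on siCtrl arrays 1 to 3. All siHBO1 arrays lay below all siCtrl arrays, with means of 11.70 ± 0.11 and 12.02 ± 0.11 (SD, n = 3 each). The log2 change was -0.31 (SE 0.11, 95% interval -0.57 to -0.06, limma adjusted p 0.999), or 0.804-fold. The second KRT80 probe (ILMN_2366445) overlapped between groups, with a change of -0.13 (SE 0.27). KRT8 had 11.83, 11.18 and 11.87 on siHBO1 arrays against 11.36, 11.35 and 11.46 on siCtrl arrays. The siCtrl values lay close together and inside the siHBO1 range (change 0.24, SE 0.18). Its partner KRT18 had changes of 0.35 (SE 0.29) and 0.07 (SE 0.22) by its 2 probes, the groups overlapping in both.

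KRT7 and KRT19 varied more within each group than between the groups. KRT7 had log2 values of 10.57, 8.40 and 8.23 on siHBO1 arrays 1 to 3 and 9.87, 8.63 and 7.90 on siCtrl arrays 1 to 3. In both groups the array numbered 1 was highest, by more than 1 log2 unit. The highest siHBO1 value was 5.07-fold the lowest, and the highest siCtrl value 3.92-fold. The change was 0.27 (SE 0.65, interval -1.21 to 1.75), an interval that reaches past 2-fold in both directions. With the replicate number as a block the change was the same, with an SE of 0.19. The change was 0.87 with array weights, and from -0.48 (without siHBO1 1) to 0.80 (without siCtrl 1) with 1 array left out. KRT19 had 11.06, 9.82 and 10.03 on siHBO1 arrays and 11.03, 9.78 and 9.65 on siCtrl arrays, with the same array highest in each group and a change of 0.15 (SE 0.41). That change was 0.58 with array weights, and from -0.22 (without siHBO1 1) to 0.59 (without siCtrl 1) with 1 array left out. With the replicate block the KRT19 change was 0.15, with an SE of 0.14.

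CLDN1, a claudin of many barrier epithelia, had the widest spread of all 34 probes. Its log2 values were 12.35, 11.76 and 9.55 on siHBO1 arrays 1 to 3 and 12.43, 10.66 and 10.18 on siCtrl arrays 1 to 3. The ranges overlapped almost wholly, and siHBO1 array 3 was lowest of all. The change was 0.13 (SE 0.74, interval -1.56 to 1.81, and SE 0.25 with the replicate block), and 0.70 with array weights. With 1 array left out it lay between -0.44 (without siHBO1 1) and 0.96 (without siHBO1 3). CLDN3 was tight: 5.91, 5.96 and 6.12 on siHBO1 arrays against 6.25, 6.35 and 6.30 on siCtrl arrays, with no overlap. Its change of -0.30 (SE 0.17, limma adjusted p 0.999) was -0.11 without background correction. CLDN4 and CLDN7 did not pass the detection filter and were not tested.

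For the scaffold TJP1, 2 probes were tested. ILMN_2403006 had 9.52, 9.55 and 9.59 on siHBO1 arrays against 9.77, 9.82 and 10.04 on siCtrl arrays, without overlap. Its change was -0.33 (SE 0.15, limma adjusted p 0.999). ILMN_1691499 had 10.82, 10.57 and 10.43 on siHBO1 arrays against 10.66, 10.81 and 10.61 on siCtrl arrays, with overlap and a change of -0.08 (SE 0.15), and the platform table ties the 2 probes to different transcript records. CGN had 6.86, 7.03 and 6.32 on siHBO1 arrays against 6.62, 6.27 and 5.83 on siCtrl arrays. The groups overlapped, and the change of 0.50 (SE 0.27) was 0.21 without background correction and 0.29 without siCtrl 3. MARVELD2 differed by -0.04 (SE 0.22).

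Desmosome genes gave the lowest and the highest change in the set. JUP (plakoglobin, shared by desmosomes and adherens junctions) had 7.52, 5.93 and 6.56 on siHBO1 arrays against 6.67, 6.04 and 5.34 on siCtrl arrays. The groups overlapped, and array 1 was highest in each. The change was 0.65 (SE 0.44, interval -0.35 to 1.64, and SE 0.26 with the replicate block), and 0.27 without background correction. Leaving out 1 array moved it to between 0.22 (without siHBO1 1) and 1.02 (without siHBO1 2), with 0.31 without siCtrl 3 and 0.98 without siCtrl 1. PERP, a desmosomal membrane protein induced by p53-family factors, had 9.90, 10.42 and 10.19 on siHBO1 arrays against 10.34, 10.59 and 10.60 on siCtrl arrays. Only siHBO1 array 2 reached into the siCtrl range, and the change was -0.34 (SE 0.17), or -0.21 without siHBO1 1.

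The desmosomal cadherins showed probes of 1 gene going different ways. DSG2 (ILMN_1704196) had 9.74, 9.47 and 9.61 on siHBO1 arrays against 9.40, 9.13 and 9.07 on siCtrl arrays. All siHBO1 arrays were higher, with means of 9.60 ± 0.14 and 9.20 ± 0.17 (SD, n = 3 each). The change was 0.41 (SE 0.16, interval 0.03 to 0.78, limma adjusted p 0.999). The other DSG2 probe (ILMN_3251672) had 12.39, 12.74 and 12.60 on siHBO1 arrays against 12.73, 12.62 and 12.59 on siCtrl arrays, overlapping, with a change of -0.07 (SE 0.11). DSC3, a desmocollin mainly of stratified epithelia, behaved likewise at signals near background. ILMN_1765363 had 5.10, 5.42 and 5.47 on siHBO1 arrays against 5.55, 5.7 and 5.85 on siCtrl arrays, without overlap, and a change of -0.37 (SE 0.20), or -0.11 without background correction. ILMN_2359159 gave 0.27 (SE 0.28) and was detected on 3 of 6 arrays.

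The other desmosome genes overlapped between groups. The DSP probes, for the plaque protein desmoplakin, differed by 0.00 (SE 0.16) and -0.32 (SE 0.21), DSC2 by -0.29 (SE 0.29), PKP2 by -0.11 (SE 0.36) and the PKP3 probes by -0.16 (SE 0.18) and 0.14 (SE 0.31). Of the 10 genes with more than 1 tested probe, 5 had probes that differed in sign: DSG2, DSC3, PKP3, DSP and CTNNA1.

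CTNNA1, which ties the cadherin complex to actin, had the steadiest values in the set. ILMN_2230902 had log2 values of 13.13, 13.26 and 13.19 on siHBO1 arrays against 13.13, 13.22 and 13.16 on siCtrl arrays, and a change of 0.02 (SE 0.08, interval -0.16 to 0.21). Its other probe gave -0.07 (SE 0.09). CTNND1 (ILMN_2293511), which stabilises cadherins at the membrane, had 5.61, 6.14 and 5.59 on siHBO1 arrays against 5.37, 5.69 and 4.98 on siCtrl arrays. The groups overlapped, and the change of 0.43 (SE 0.25) was 0.13 without background correction and 0.25 without siHBO1 2 or siCtrl 3. The other tested CTNND1 probe gave 0.25 (SE 0.23).

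ELF3, an epithelial ETS factor and the only regulator that could be tested, had 6.95, 6.45 and 7.19 on siHBO1 arrays against 6.61, 7.21 and 7.25 on siCtrl arrays. The groups overlapped, with a change of -0.16 (SE 0.26). SPINT2, an inhibitor of surface serine proteases, had 11.75, 10.95 and 11.17 on siHBO1 arrays against 11.12, 10.96 and 10.89 on siCtrl arrays. Only siHBO1 array 1 stood well above the others, and the change of 0.30 (SE 0.20) was 0.07 without that array. The 3 probes of EPCAM, an epithelial adhesion molecule, gave changes of 0.00 (SE 0.35), -0.13 (SE 0.34) and -0.08 (SE 0.20).

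**Figure D3:**
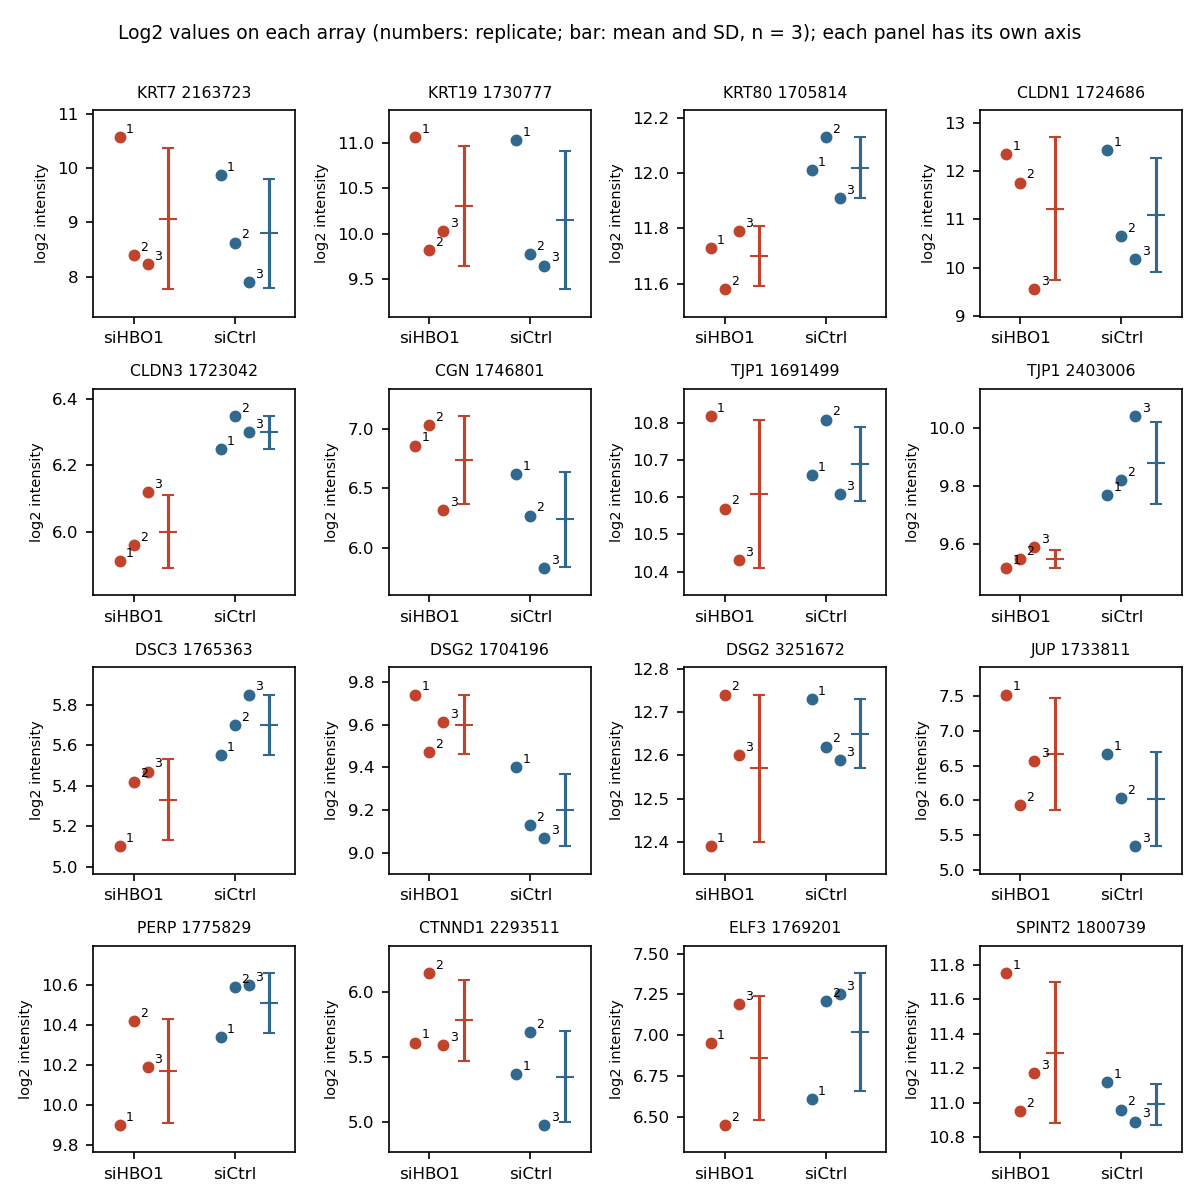
Log2 intensity of 16 probes on each array, siHBO1 (red) left of siCtrl (blue), with the replicate number beside each point and the group mean and SD (n = 3) as a bar; each panel has its own axis, and levels of different probes are not comparable. KRT80 (ILMN_1705814), CLDN3, TJP1 (ILMN_2403006), DSC3 and DSG2 (ILMN_1704196) separate the groups, while KRT7, KRT19 and CLDN1 spread over more than 1 log2 unit within each group.

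Several of these genes varied widely between arrays of the same group. The pooled within-group SD of the 34 probes ran from 0.06 (CTNNA1) to 1.34 (CLDN1), with a median of 0.28 against 0.24 over all tested probes. Of the 34, 7 probes (20.6%) had an SD over 0.5, against 7.32% of all tested probes, a limit set after the values were seen. They belong to CLDN1 (1.34), KRT7 (1.16), JUP (0.74), KRT19 (0.71), EPCAM (0.58 and 0.54) and PKP2 (0.58). An SD as large as that of CLDN1 was reached by 0.202% of all tested probes, and one as large as that of KRT7 by 0.40%. Wide spread was not particular to the 34 probes. Among the other epithelial genes described below, MAL2 had an SD of 1.54, KLF5 of 0.86 and LAD1 of 0.69. These were picked for their size, and others were steady, such as CLDN15 (0.12) and CLDN23 (0.17).

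The same arrays were high for many of these genes. In 12 of the 34 probes (35.3%) the array numbered 1 was highest in both groups, against 17.5% of all tested probes. It was so for 6 of the 7 probes with an SD over 0.5. The matching share over all tested probes with such an SD was not computed. The array numbered 1 was lowest in both groups for 7 of the 34, against 17.9% of all tested probes. As deviations from the group mean, CLDN1 had 1.13, 0.54 and -1.67 on siHBO1 arrays 1 to 3 and 1.34, -0.43 and -0.91 on siCtrl arrays 1 to 3. The mean over the 23 genes deviated by 0.33, -0.15 and -0.18 on siHBO1 arrays and by 0.24, -0.01 and -0.23 on siCtrl arrays. The mean of the 5 keratins deviated by 0.58, -0.33 and -0.25 on siHBO1 arrays and 0.48, -0.14 and -0.34 on siCtrl arrays. This mean does not describe each keratin. By the brightest probe, KRT7 deviated by 1.5 on siHBO1 array 1 and 1.07 on siCtrl array 1. There KRT19 deviated by 0.75 and 0.88, and KRT18 by 0.41 and 0.52. KRT8 (0.2 and -0.03) and KRT80 (0.03 and -0.01) were not highest on array 1 in either group.

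Other genes moved with these arrays. The mean of 13 NF-kB and cytokine genes deviated by 0.71, 0.20 and -0.91 on siHBO1 arrays 1 to 3 and by 0.92, -0.54 and -0.38 on siCtrl arrays 1 to 3, the order seen for CLDN1 on the siHBO1 arrays. COL1A1 and COL1A2, collagens of mesenchymal cells, deviated on average by -0.96, -0.55 and 1.51 on siHBO1 arrays and by -1.0, 0.60 and 0.40 on siCtrl arrays. They were lowest on array 1 of each group, where KRT7, KRT18 and KRT19 were highest. Other mesenchymal markers differed in this. CDH2 was also lowest there, with log2 values of 12.31 on siHBO1 and 12.12 on siCtrl array 1. ZEB1 was highest there (6.83 and 6.94), as was SNAI2 by probe ILMN_1655740 (11.45 and 11.43). VIM (ILMN_1782538) ranged only from 13.90 to 14.03 over the 6 arrays. The summed signal of the 8 fibroblast and endothelial markers ranged from 1545 to 4157 on siHBO1 and from 1492 to 2520 on siCtrl arrays. That sum includes the same 2 collagens: on siHBO1 array 3, where it was 4157, COL1A1 had a signal of 2200 and COL1A2 of 880.6. PECAM1, CDH5 and VWF were detected on no array and add only background to it. COL3A1 was detected on siHBO1 array 3 alone. In bulk RNA a different number of cells of a type and a different amount of RNA per cell cannot be told apart, and the part of these markers in the spread was not tested. The labels give no slide or scan batch.

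**Figure D4:**
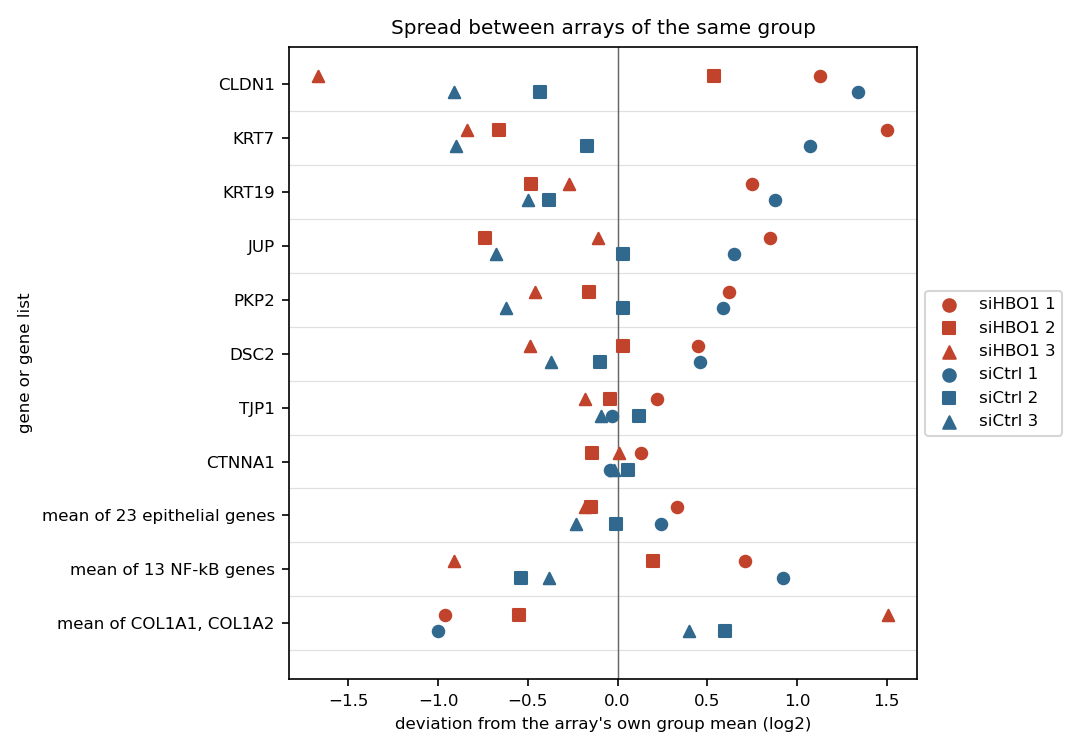
Deviation of each array from the mean of its own group on the log2 scale, for 8 genes by their brightest probe and for 3 gene averages; red is siHBO1, blue siCtrl, and circles, squares and triangles are replicates 1, 2 and 3. Circles lie to the right for CLDN1, KRT7, KRT19, JUP, PKP2 and DSC2 in both groups and to the left for the collagens, while TJP1 and CTNNA1 stay near 0.

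Other epithelial genes were read from a list of 68, of which 60 had a probe with a single symbol. At least 1 probe was detected on all 6 arrays for 21 of these 60 genes, against 53% of all named genes. For 23 genes no probe was detected on any array. The genes detected on all 6 arrays included CTNNB1, CLDN12, CGNL1, PKP4, KLF5 and MAL2. The undetected genes included CLDN2, CLDN6, GRHL3, RAB25, PRSS8, DSG1, DSG3, PKP1 and EVPL. Of the 38 tested probes of 29 genes, 0 were called higher and 0 lower in limma. At an unadjusted p under 0.05 there were 2, against 3.73% of all tested probes. In 2 (5.26%) the groups did not overlap, against 9.98% of all tested probes. By the brightest probe 12 genes were positive and 17 negative, with a median log2 change of -0.04. The smallest p among positive changes belonged to MUC1, a transmembrane mucin (0.64, SE 0.22, limma adjusted p 0.999), and NECTIN2, an adhesion molecule of the adherens junction (0.48, SE 0.19). This MUC1 probe (ILMN_2371911) was detected on 3 of 3 siHBO1 and 1 of 3 siCtrl arrays. The brightest MUC1 probe (ILMN_1756992) was detected on all 6 arrays and overlapped between groups, with a change of 0.28 (SE 0.28). The other tested NECTIN2 probes also overlapped, with changes of 0.37 (SE 0.28) and 0.28 (SE 0.22). Among negative changes the smallest p belonged to PALS1, a polarity scaffold (-0.25, SE 0.15), and AP1M2, an epithelial sorting adaptor (-0.36, SE 0.30).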

How the data were processed

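Expression was measured on 6 Illumina bead arrays, 3 siHBO1 and 3 siCtrl, grouped by the sample titles. The deposited intensity is each probe's mean bead signal, per the file headers, with no background subtraction or scaling visible in the values. A detection p-value is deposited for each probe and array, per the file headers, and on this platform it ranks a signal among negative control beads. The authors' deposited processed values are on a log2 scale, judged from their range (5.72 to 14.29, each column's median 5.99) and their rank correlation of 1 with the intensities of the same array. They hold levels with no centring by gene visible, and how background and normalization were handled is not stated in the labels or headers. The submitters' processing notes name GenomeStudio and lumi, without version or role.

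From the intensities, neqc (offset 16; background correction, then quantile normalization) from the limma package (3.58.1; R 4.3.3, statmod 1.5.0) gave log2 values. A probe was kept (20744 were) when 3 or more of the 6 arrays had a detection p under 0.05, each probe as its own feature. The two-sided test used lmFit, then eBayes with a trend on intensity, with Benjamini-Hochberg adjustment over all kept probes and a threshold of 0.05. The scripts were tested on simulated data. Gene names are the platform table's: 30110 probes carry 1 symbol, 8 several and 17196 none. Promoter windows come from RefSeq (GRCh38.p14), where 19 of 35 genes matched.

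The genes and lists were chosen with earlier results of these data known. All listed genes are named; per-array values are given for the 8 probes with the smallest p, the 4 with the largest within-group SD, the 4 with the largest change, at least 1 gene per role, and the brightest probe of each such gene, with KRT8 and CTNNA1 added after their values were seen. Outside them KAT7, CDH1, CDH2, VIM, the ZEB, SNAI and TWIST1 genes and 4 genes of the other epithelial list are named by rule. The number of arrays limits the precision. Deviations of same-numbered arrays from their group means correlated at 0.56, 0.02 and 0.46 across probes. Those of differently numbered arrays correlated at -0.55 to 0.31. The labels state no pairing, and the samples were treated as unpaired, which leaves any shared effect of the replicate number in the spread. Alternatives changed background correction, offset, scaling, filter, probe choice, array weights, the replicate block, the trend and single arrays.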

Additional observations from a re-analysis of the deposited data

How the results depend on the processing

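No listed probe passed an adjusted p under 0.05 in any of the 17 alternatives run. Over all probes, array weights called 1 and the replicate block called 4, none of them a listed probe. At an unadjusted p under 0.05 there were 9 listed probes with array weights (26.5%, against 7.58% of all probes), 6 with the replicate block (17.6%, against 6.79%) and 0 without both arrays numbered 1; the cause was not tested. The replicate block was not taken as a pairing, and changed the call of 0 listed probes; 4 of the 6 arrays correlated best with the array of the same number, which is a hint given by the values alone. The count of listed probes with groups apart was 3 of 23 (13%, against 10.1% of all) with 1 probe per gene, where fewer probes are tested, from 6 to 11 with 1 array left out (17.6% to 32.4%, against 15.8% to 27.1% of all probes), and 16 of 34 (47.1%, against 27% of all probes) without both arrays numbered 1, where 2 arrays face 2. That exclusion was added after the values were seen. The median within-group SD was 0.14 without background correction, against 0.28. Of 25 probes with a change of at least 0.1 in size, 14 were smaller by over 1.5 times without background correction. Of 314 values of the 19 named probes, 298 had the reported sign. The others came from leaving out arrays and were not past the threshold in either fit, ranges being those with 1 array left out: CLDN1 (-0.44 to 0.96, negative without siHBO1 1, siHBO1 2 (-0.15), siCtrl 2 (-0.09) or siCtrl 3 (-0.33)), KRT7 (-0.48 without siHBO1 1, -0.18 without siCtrl 3, up to 0.80), KRT19 (-0.22 without siHBO1 1, -0.04 without siCtrl 2, -0.10 without siCtrl 3, up to 0.59), KRT80 ILMN_2366445 (0.11 without siHBO1 1, 0.08 without siCtrl 2), DSG2 ILMN_3251672 (0.02, and 0.06 without both arrays numbered 1), ELF3 (-0.37 to 0.04, and -0.41 without both arrays numbered 1), TJP1 ILMN_1691499 (-0.19 to 0.01, and -0.21 without both arrays numbered 1) and DSC3 ILMN_2359159 (-0.09 without both arrays numbered 1). The number of genes detected on all arrays was 15 to 21 in its alternatives, 17 with a detection p under 0.01. Probes near background limit the size of a change, and with 3 arrays per group the median 95% interval reached 0.51 log2 to either side.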
